A study of Mus musculus with 8 samples.

Results

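NF-κB is a family of transcription factors that work as dimers of 5 subunits, and this account describes the transcripts of those subunits and of the proteins that restrain or modify them in macrophages. The set held 10 genes, chosen by name and matched to Ensembl gene identifiers, of 54532 genes in the count files. The 5 subunit genes were Nfkb1, Nfkb2, Rel, Rela and Relb. The other 5 were Nfkbia, Nfkbib and Nfkbie, which encode IκB proteins, Tnfaip3, which encodes the ubiquitin-editing enzyme A20, and Bcl3, which encodes an atypical nuclear IκB protein. All 10 passed the filter on low counts, which kept 14591 genes, and each had between 288 and 2937 counts in every library. In GRCm38, Relb (chr7:19606217-19629438), Nfkbib and Bcl3 lie on chromosome 7, Rela (chr19:5637483-5648130) and Nfkb2 on chromosome 19, Nfkb1 (chr3:135584655-135691547) on chromosome 3, Rel on 11, Nfkbia on 12, Nfkbie on 17 and Tnfaip3 on 10, and reads were counted over their annotated exons.

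Polyadenylated RNA was sequenced from mouse bone marrow-derived macrophages (BMDMs), which were grown from marrow of animals aged 6 to 8 weeks in medium conditioned by L929 cells, a fibroblast line that secretes the macrophage growth factor CSF1. There were 4 groups of 2 libraries: wild-type cells (WT), cells of Trex1-/- mice (Trex1-KO), and Trex1-KO cells given H151 (Trex1-KO+H151) or SN-011 (Trex1-KO+SN-011), both antagonists of STING. The WT and Trex1-KO cells received the vehicle DMSO, mice of both genotypes were on the C57BL/6J background, and incubation lasted 12 h. The H151 dose was 500 nM in the labels. For SN-011 no label holds a dose, and the methods list the same concentration for both antagonists. The study calls the libraries of a group independent experiments, but the labels do not say whether they came from separate mice.

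In resting cells the IκB proteins hold NF-κB dimers in the cytoplasm. When the IκB kinase (IKK) complex marks them for degradation, the dimers enter the nucleus and raise inflammatory genes, among them several of the family's own subunits and inhibitors, which forms a negative feedback. TREX1 is a DNA exonuclease that clears cytosolic DNA. Without it, the sensor cGAS makes cGAMP, which activates the adaptor STING, and STING signals mainly through TBK1 and IRF3 to type I interferon and also to NF-κB.

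The promoter sequences below are shown because the κB site, the motif that NF-κB dimers bind, lies next to the start of most of these genes. RefSeq windows of 300 bases around the annotated starts (GRCm38.p6) were found for 8 of the 10 genes, all but Nfkb1 and Relb. The κB consensus was searched by name on both strands with overlapping matches merged, and 6 of the 8 held it, compared with 9.55% of all 27025 genes with a window and 8.46% of the 32851 windows. Rela and Nfkbib had no match in their windows. Nfkb2 had 4 distinct sites over its annotated starts, Tnfaip3 had 2, and Rel, Nfkbia, Nfkbie and Bcl3 had 1 each. The interferon-response motif GAAANNGAAA was in none of the 8, compared with 3.99% of genes and 3.44% of windows. The lines give 250 bases upstream of the start for Nfkbia (chr12:55492648-55492897, minus strand), Nfkbie (chr17:45555450-45555699, plus strand) and Rel (chr11:23770970-23771219, minus strand), 5′ to 3′, with the κB match in capitals.
Nfkbia: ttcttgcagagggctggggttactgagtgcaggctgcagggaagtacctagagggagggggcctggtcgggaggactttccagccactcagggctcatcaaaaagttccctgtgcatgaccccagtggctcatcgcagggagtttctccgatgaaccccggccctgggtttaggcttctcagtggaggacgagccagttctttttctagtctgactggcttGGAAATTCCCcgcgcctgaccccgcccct
Nfkbie: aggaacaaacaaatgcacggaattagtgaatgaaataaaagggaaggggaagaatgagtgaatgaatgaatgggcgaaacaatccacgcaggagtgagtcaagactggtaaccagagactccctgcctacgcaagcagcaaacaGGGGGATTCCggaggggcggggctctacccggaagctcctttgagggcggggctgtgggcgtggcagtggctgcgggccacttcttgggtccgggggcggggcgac
Rel: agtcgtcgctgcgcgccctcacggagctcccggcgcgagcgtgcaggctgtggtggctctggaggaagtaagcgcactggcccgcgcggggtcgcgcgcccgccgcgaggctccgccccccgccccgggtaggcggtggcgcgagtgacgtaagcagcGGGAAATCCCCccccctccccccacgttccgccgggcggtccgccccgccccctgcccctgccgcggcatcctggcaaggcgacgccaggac

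The match lay 29 to 20 bases upstream of the start in Nfkbia, 106 to 97 bases upstream in Nfkbie and 92 to 82 bases upstream in Rel. Shorter windows of 30 bases show matches close to an annotated start in Tnfaip3 (chr10:19015403-19015432, minus strand), Nfkb2 (chr19:46304689-46304718 and chr19:46304716-46304745, plus strand) and Bcl3 (chr7:19822734-19822763, minus strand), again with the match in capitals and with 2 of the 4 Nfkb2 sites. A match is a description of the letters and was not tested as a binding site in these cells.
Tnfaip3: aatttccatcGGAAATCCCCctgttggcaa
Nfkb2 first site: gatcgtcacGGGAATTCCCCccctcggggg
Nfkb2 second site: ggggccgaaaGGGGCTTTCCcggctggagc
Bcl3: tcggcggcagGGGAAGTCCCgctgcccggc

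The libraries held 11845470 to 17284863 counted reads, and values are given as CPM, counts scaled to a common library size with trimmed mean of M-values (TMM) factors of 0.973 to 1.04, so that 1 count was worth 0.0582 to 0.0849 CPM. The 10 macrophage markers, such as Adgre1, Csf1r and Mertk, summed to 31401 to 33665 CPM and none was at 0 in any library. Neutrophil markers summed to 16.1 to 16.8 CPM in WT and 73.3 to 112.1 CPM in the other groups, and fibroblast markers to 2660 to 2938 CPM in WT and 1103 to 1578 CPM in the others. Lymphocyte markers summed to 34.1 to 34.5 CPM in WT and 18.9 to 22.4 CPM elsewhere, and dendritic cell markers to 4.74 to 7.25 CPM in all. Elane and Ly6g were at 0 in both WT libraries, Cd3e, Cd3g and Cd8a in both WT and both Trex1-KO libraries, and Ccr7 and Cd209a in all 8. In the marker lists, S100a8, S100a9, Camp, Ngp and Ltf were higher and 6 of 9 tested stromal genes were lower in Trex1-KO than in WT. The other 3 tested stromal genes were not called, among them Dcn, at 1.77 and 2.58 CPM in WT and 3.09 and 2.90 in Trex1-KO. The dendritic cell markers Clec9a and Xcr1 were higher in Trex1-KO, by 2.60 and 2.88 on the log2 scale at under 2 CPM. So were the macrophage markers Fcgr1, Cd68 and Adgre1, by 1.14, 0.44 and 0.19, and Cd4 was lower, at -0.68. Against Trex1-KO, 2 of the markers were called with an antagonist. Fcgr1 was lower, with log2 fold changes of -0.50 with H151 and -0.49 with SN-011, and the neutrophil marker Mmp8 was higher with H151, at 26.9 and 23.6 CPM against 8.45 and 9.63 in Trex1-KO and 9.48 and 13.4 with SN-011. The part of these cells in the results below was not tested. In bulk RNA, a change in the share of cells cannot be told apart from a change in RNA per cell. Trex1 was listed at 0 counts in every library, WT included, so its own counts do not check the knockout, which rests on the labels. Atrip, which overlaps Trex1 in the annotation, had 192 and 257 counts in WT and 639 to 1067 in the 6 knockout libraries. The cause of this difference was not tested.

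The WT libraries differed from each other at the genes of the set. WT library 1 exceeded WT library 2 by 1.43-fold for Nfkbia, 1.42-fold for Nfkb2, 1.41-fold for Nfkbie, 1.37-fold for Bcl3, 1.36-fold for Tnfaip3 and 1.27-fold for Relb. For Nfkb1, Rel, Rela and Nfkbib the ratio of WT 1 to WT 2 was 0.983 to 1.03. Thus 6 of 10 genes differed by over 1.2-fold between the WT libraries, compared with 22.5% of all tested genes. In Trex1-KO 1 gene did so, Nfkbie, with H151 1, Tnfaip3, and with SN-011 0. Of all tested genes 26.3%, 27.7% and 22.7% did so in these groups. NF-κB target genes shared the pattern, with 42 of 48 higher in WT library 1 and a median log2 gap of 0.32, and so did the interferon-stimulated genes described further on, with 20 of 20 higher. Over all tested genes 52.5% were higher in WT library 1, with a median log2 gap of 0.009. The interferon-stimulated genes also split the H151 libraries, with 1 of 20 higher in library 1 and a median log2 gap of -0.32. The counts of these 10 genes called against WT are therefore also given without each WT library.

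**Figure D1:**
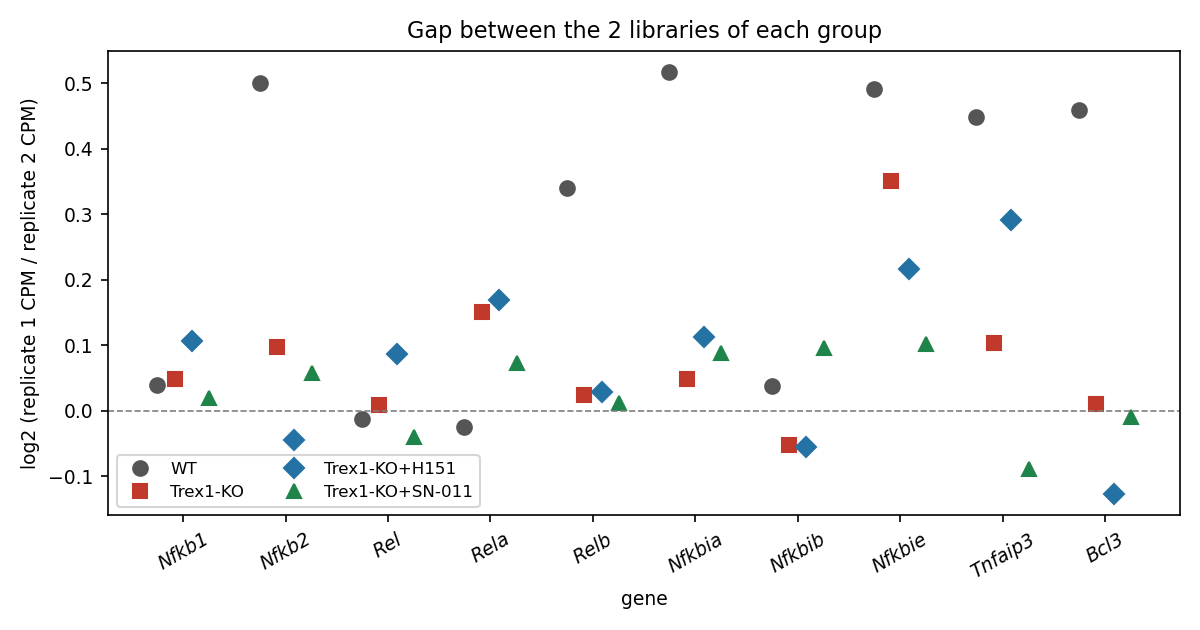
Log2 ratio of the CPM of replicate 1 to that of replicate 2 (y axis) for each gene (x axis) in the 4 groups, 1 point per group. WT points (circles) for Nfkb2, Relb, Nfkbia, Nfkbie, Tnfaip3 and Bcl3 lie between 0.34 and 0.52, and the other WT points lie between -0.03 and 0.04.

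Per kb of exon, Nfkbia, which encodes IκBα, had the highest level and Tnfaip3 the lowest in all 4 groups. Exon length was that of all annotated exons of a gene merged, 1610 bases for Nfkbia, 7226 for Tnfaip3 and 12061 for Nfkb1. The order therefore depends on the annotation and not on the transcripts present in these cells. Before division by length, Nfkb1 had the highest mean in WT, at 179.2 CPM. Mean Nfkbia was 63.5 ± 15.9 CPM per kb in WT (SD, n = 2) and 83.3 ± 1.96 in Trex1-KO (SD, n = 2). Rela followed at 33.6 to 38.7 CPM per kb across groups, and Nfkb2 at 20.9 to 28.2. The order of the next genes changed between groups, and in WT the ranges of Relb and Nfkb1 overlapped, as did those of Nfkbib and Bcl3, Bcl3 and Nfkbie, and Nfkbie and Tnfaip3. In Trex1-KO the ranges of Rel and Nfkb1, Nfkb1 and Nfkbie, and Nfkbie and Nfkbib overlapped. Exons of Nfkb2 shared 18.1% of their bases with AC114539.1 and Psd, those of Nfkbib 16.4% with Ccer2 and Sirt2, and those of Bcl3 6.51% with Gm16175. Reads in these stretches may not have been counted, so levels of these 3 genes are less certain.

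**Figure D2:**
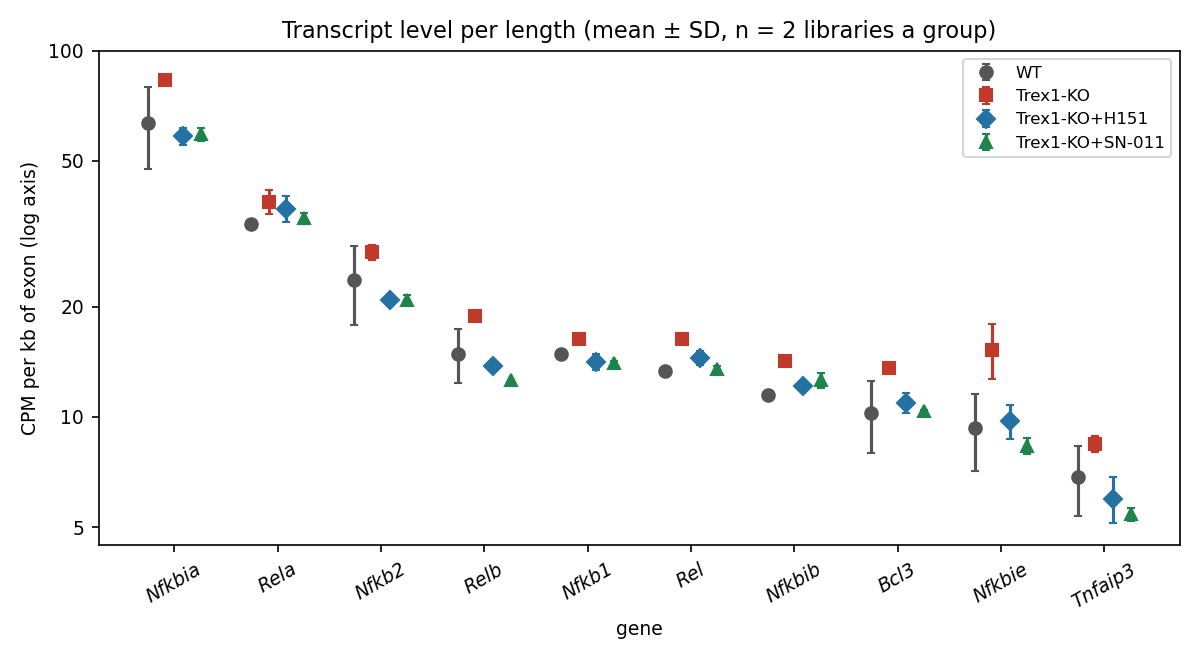
Mean level per kb of merged annotated exon with SD (y axis, CPM per kb, log axis) for each gene (x axis) in the 4 groups, n = 2 libraries a group. Nfkbia stands highest and Tnfaip3 lowest in each group, and the Trex1-KO square is the highest mean of the 4 groups for every gene.

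The first comparison asked what loss of Trex1 did to these transcripts. All 10 genes had their highest mean in Trex1-KO. With edgeR's quasi-likelihood test and a Benjamini-Hochberg false discovery rate (FDR) under 0.05 over all tested genes, 6 of the 10 were higher in Trex1-KO than in WT and 0 were lower, where 9.27% of all tested genes were called higher and 7.11% lower. The 6 were the subunits Rel and Relb and the inhibitors Nfkbia, Nfkbib, Nfkbie and Bcl3. The median log2 fold change of the 10 was 0.31, compared with -0.002 over all tested genes, and values ran from 0.13 to 0.71. The libraries did not overlap for 9 of the 10, all but Nfkb2, where 28.6% of all tested genes were higher without overlap.

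**Figure D3:**
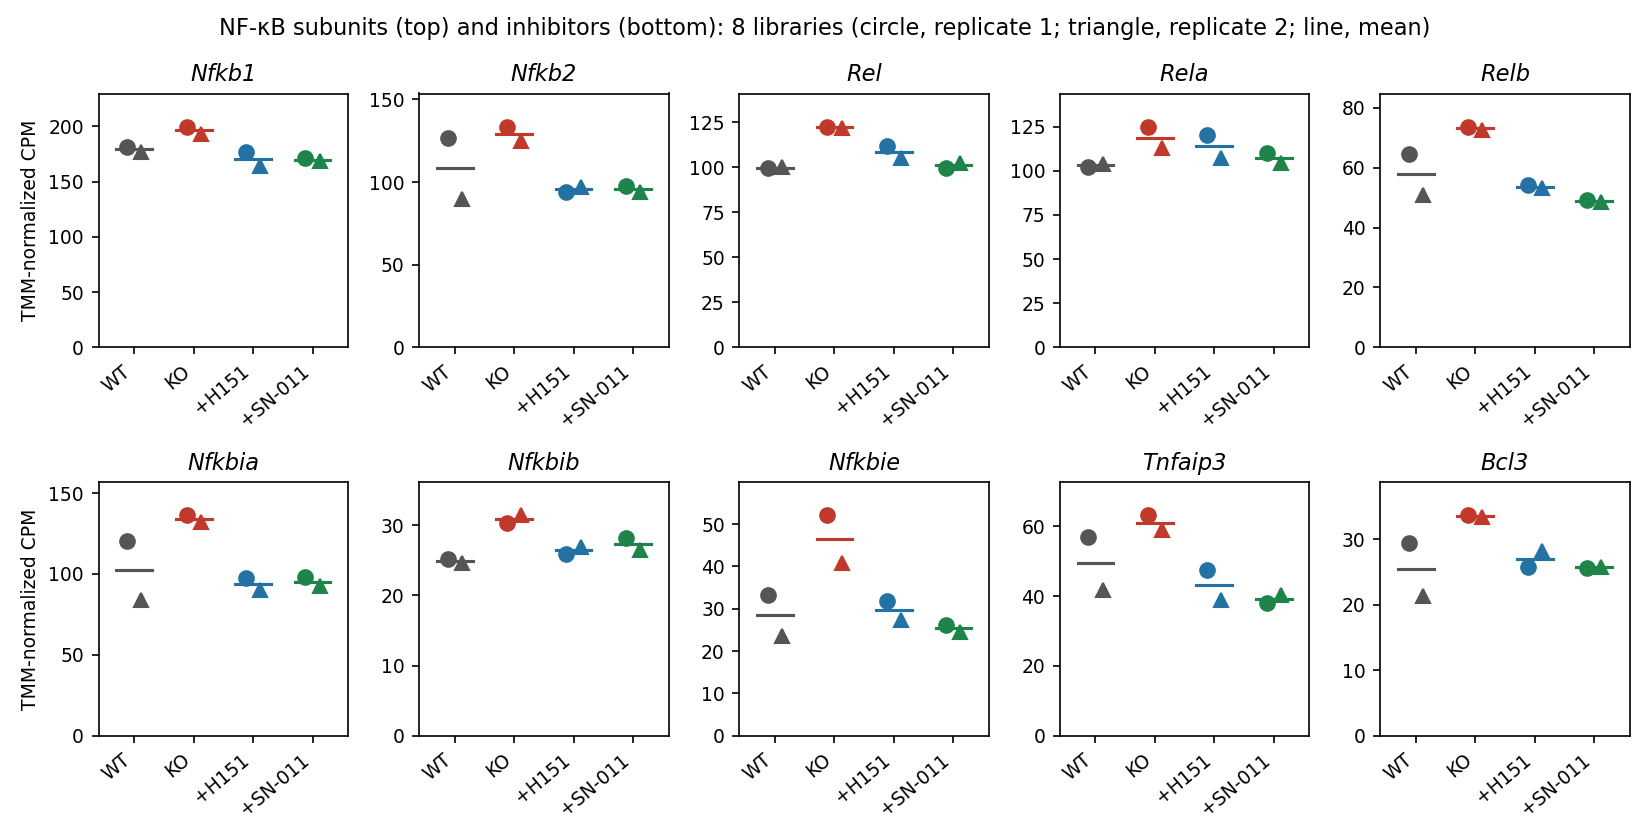
TMM-normalized CPM (y axis, from 0) of each gene in the 8 libraries, subunits in the top row and inhibitors in the bottom row; circles are replicate 1, triangles replicate 2 and lines group means. Trex1-KO stands highest in mean for each gene, and the 2 WT points lie apart for Nfkb2, Relb, Nfkbia, Nfkbie, Tnfaip3 and Bcl3.

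Among the subunits, Rel encodes c-Rel, a subunit with a transactivation domain that is abundant in blood cells. Its CPM was 99.2 and 100.1 in WT and 122.5 and 121.7 in Trex1-KO. All Trex1-KO values stood above all WT values, and the log2 fold change was 0.29 ± 0.06 (SE, FDR = 0.00403 by edgeR). Relb encodes RelB, which pairs with the p52 product of Nfkb2 in the non-canonical pathway. Its CPM was 64.6 and 51.0 in WT and 73.7 and 72.5 in Trex1-KO, a log2 fold change of 0.34 ± 0.09 (SE, FDR = 0.0231 by edgeR). WT library 1 lay closer to Trex1-KO than WT library 2 did.

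The other subunits did not pass the threshold. Nfkb1 encodes the p105 precursor of p50, and its CPM was 181.7 and 176.8 in WT and 199.7 and 193.1 in Trex1-KO (log2 fold change 0.13, FDR = 0.175 by edgeR). Rela encodes p65, the main activating subunit of the canonical pathway, and its CPM was 102.2 and 104.0 in WT and 125.0 and 112.6 in Trex1-KO (log2 fold change 0.20, FDR = 0.0856 by edgeR). Nfkb2 encodes the p100 precursor of p52, and its CPM was 126.8 and 89.6 in WT and 133.6 and 124.8 in Trex1-KO (log2 fold change 0.26, FDR = 0.168 by edgeR). WT library 1 stood above Trex1-KO library 2 for Nfkb2, so its groups overlapped.

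Among the inhibitors, Nfkbie, which encodes IκBε, had the largest fold change of the 10 genes. Its CPM was 33.3 and 23.7 in WT and 52.1 and 40.9 in Trex1-KO, a log2 fold change of 0.71 ± 0.15 (SE, FDR = 0.00465 by edgeR). Groups did not overlap, although both held a gap between their libraries. Nfkbia, the feedback inhibitor IκBα that is resynthesised after NF-κB activation, measured 120.4 and 84.1 CPM in WT and 136.4 and 131.9 in Trex1-KO. Its log2 fold change was 0.39 ± 0.12 (SE, FDR = 0.0377 by edgeR). Bcl3, which binds p50 and p52 dimers in the nucleus, measured 29.4 and 21.4 CPM in WT and 33.7 and 33.5 in Trex1-KO. Its log2 fold change was 0.41 ± 0.13 (SE, FDR = 0.0442 by edgeR), close to the threshold.

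Nfkbib, which encodes IκBβ, measured 25.2 and 24.6 CPM in WT and 30.3 and 31.5 in Trex1-KO, a log2 fold change of 0.31 ± 0.09 (SE, FDR = 0.0363 by edgeR). Both WT libraries were alike for this gene. Tnfaip3 measured 57.0 and 41.8 CPM in WT and 63.2 and 58.8 in Trex1-KO, with a log2 fold change of 0.31 that did not pass (FDR = 0.134 by edgeR).

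Several of these values depended on which WT library was used. Without WT library 1, 7 of the 10 genes were called, and without WT library 2 only Rel was called. Over all genes the calls, in both directions, were 1556 and 1583 in these fits and 2390 with all 8 libraries. The log2 fold change of Nfkbia was 0.66 against WT library 2 alone and 0.14 against WT library 1 alone, and that of Nfkbie 0.96 and 0.47. The same pair of values was 0.51 and 0.17 for Relb, 0.64 and 0.18 for Bcl3, 0.51 and 0.01 for Nfkb2 and 0.53 and 0.08 for Tnfaip3. For Rel it was 0.27 and 0.29, and for Nfkbib 0.31 and 0.28. Most of the calls were also lost when either Trex1-KO library was left out. Without Trex1-KO library 1 and without library 2, the log2 fold change of Relb was 0.32 and 0.35. That of Nfkbia was 0.36 and 0.42, of Bcl3 0.39 and 0.41 and of Nfkbib 0.32 and 0.28. Over 12 alternative settings, Rel was called in 12, Nfkbie in 10, Relb in 8, Nfkbia in 7, Bcl3 in 6 and Nfkbib in 5. Of the genes that did not pass with all libraries, Tnfaip3 was called in 3 of the 12, Nfkb2 in 2, Rela in 2 and Nfkb1 in 0.

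The next comparisons asked how STING antagonists changed the same genes in Trex1-KO cells. Both used the same Trex1-KO libraries, so they are not independent of each other or of the comparison above. With H151, 3 of the 10 genes were lower than in Trex1-KO and 0 were higher, where 1.84% of all tested genes were called lower and 0.384% higher. With SN-011, 5 of the 10 were lower and 0 were higher, where 2.22% of all tested genes were called lower and 0.11% higher. Relb, Nfkbia and Nfkbie were called with both, and Rel and Tnfaip3 with SN-011. Over 12 alternative settings, some with 1 library left out, Relb was called in 8 with H151 and 10 with SN-011. Nfkbie was called in 8 and 9 of these, and Nfkbia in 7 and 6. With SN-011, Rel was called in 6 of the 12 and Tnfaip3 in 9. Among genes that did not pass, Nfkb2 was called in 5 with each antagonist, Tnfaip3 in 5 with H151 and Bcl3 in 2 with SN-011. The median log2 fold change of the 10 was -0.37 with H151 and -0.41 with SN-011, compared with 0.001 and 0.009 over all tested genes.

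**Figure D4:**
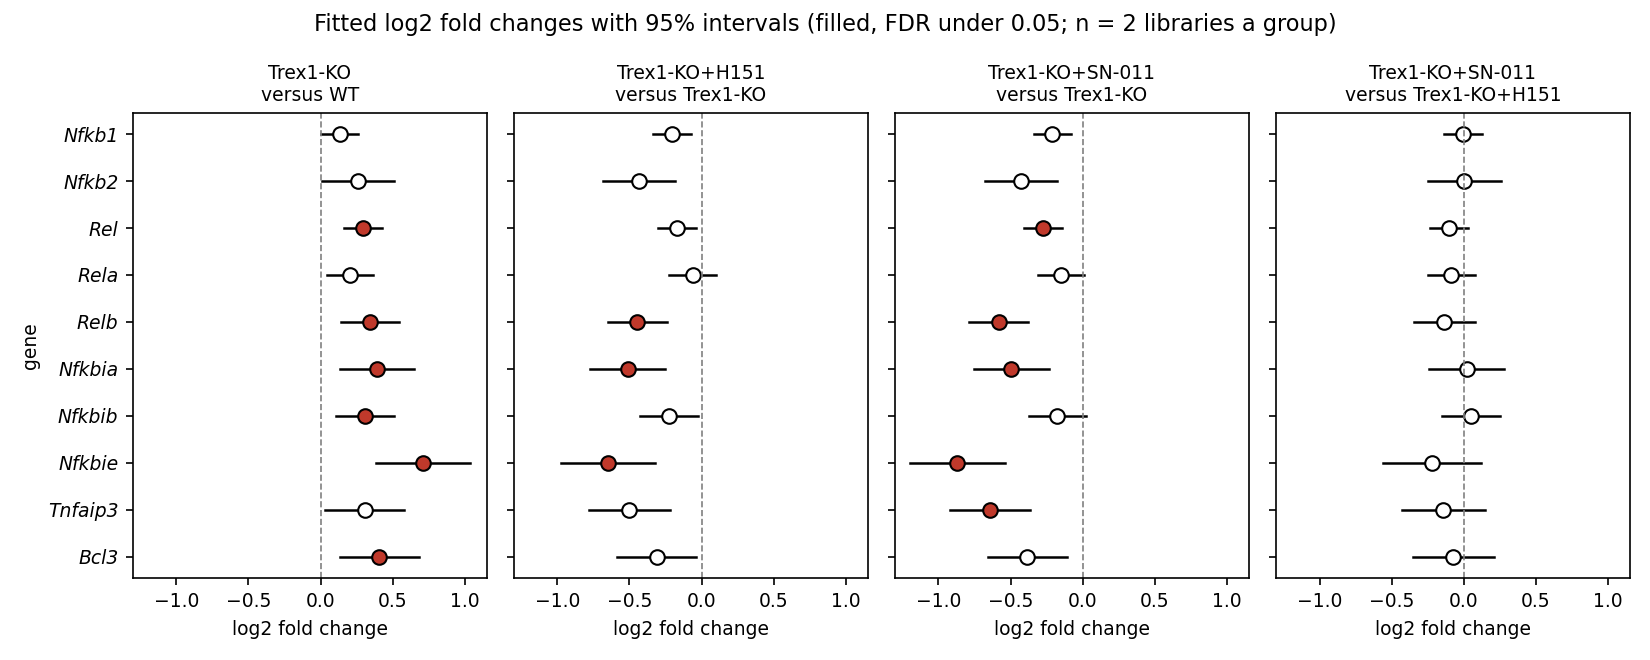
Log2 fold change (x axis) with its 95% interval for each gene (y axis) in 4 comparisons; filled points passed an FDR under 0.05. Points lie right of 0 for Trex1-KO versus WT, left of 0 for both antagonists versus Trex1-KO, and every interval of SN-011 versus H151 spans 0.

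Relb measured 54.2 and 53.1 CPM with H151 and 49.0 and 48.7 with SN-011, against 73.7 and 72.5 in Trex1-KO. Libraries within each group were close and the groups did not overlap. Its log2 fold change was -0.45 ± 0.09 with H151 (SE, FDR = 0.0226 by edgeR) and -0.58 ± 0.10 with SN-011 (SE, FDR = 0.0034 by edgeR). Rel measured 111.6 and 105.1 CPM with H151 and 99.5 and 102.3 with SN-011. The change passed with SN-011, at -0.28 ± 0.06 (SE, FDR = 0.029 by edgeR), and with H151 it was -0.17 (FDR = 0.273 by edgeR).

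For the remaining subunits no change passed. Nfkb2 measured 94.2 and 97.1 CPM with H151 and 97.8 and 93.9 with SN-011, a log2 fold change of -0.43 with each (FDR = 0.0919 and 0.0862 by edgeR). Its antagonist libraries all stood below both Trex1-KO libraries. Nfkb1 measured 176.8 and 164.2 CPM with H151 and 170.9 and 168.6 with SN-011, a log2 fold change of -0.20 and -0.21. Rela measured 120.5 and 107.1 CPM with H151 and 109.8 and 104.4 with SN-011. Its H151 libraries overlapped those of Trex1-KO, with a log2 fold change of -0.06 (95% interval -0.22 to 0.10), and its change with SN-011 was -0.15 (FDR = 0.457 by edgeR).

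Nfkbie again had the widest change among the inhibitors. It measured 31.9 and 27.4 CPM with H151 and 26.2 and 24.5 with SN-011, against 52.1 and 40.9 in Trex1-KO. Its log2 fold change was -0.65 ± 0.15 with H151 (SE, FDR = 0.0398 by edgeR) and -0.87 ± 0.15 with SN-011 (SE, FDR = 0.0057 by edgeR). Nfkbia measured 97.7 and 90.3 CPM with H151 and 98.0 and 92.2 with SN-011. These 4 values lay between 90.3 and 98.0, below both Trex1-KO values, and the log2 fold change was -0.51 ± 0.12 (SE, FDR = 0.0417 by edgeR) and -0.49 ± 0.12 (SE, FDR = 0.0487 by edgeR).

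Tnfaip3 measured 47.6 and 38.9 CPM with H151 and 37.9 and 40.3 with SN-011, against 63.2 and 58.8 in Trex1-KO. The change passed with SN-011, at -0.64 ± 0.13 (SE, FDR = 0.0166 by edgeR), and with H151 it was -0.50 (FDR = 0.074 by edgeR). Bcl3 measured 25.8 and 28.2 CPM with H151 and 25.7 and 25.8 with SN-011, and Nfkbib 25.9 and 26.9 with H151 and 28.2 and 26.4 with SN-011. Neither gene passed with either antagonist, with log2 fold changes of -0.31 and -0.39 for Bcl3 and -0.23 and -0.18 for Nfkbib. The libraries of Bcl3 and Nfkbib did not overlap those of Trex1-KO in either comparison.

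In all, the libraries did not overlap, lower with the antagonist, for 9 of 10 genes with H151 and 10 of 10 with SN-011, where 17.9% and 21.6% of all tested genes did so. Calls depended on single libraries and on the scaling. With H151, 0 genes were called without Trex1-KO library 1 or without H151 library 2, 1 without Trex1-KO library 2 and 3 without H151 library 1. All genes called in these 4 fits were 231, 357, 234 and 253, in that order, against 325 with all 8 libraries. With SN-011, 0 were called without either SN-011 library, 1 without Trex1-KO library 1 and 3 without Trex1-KO library 2. All genes called were 131 and 186 without SN-011 library 1 and 2, 198 without Trex1-KO library 1 and 302 without Trex1-KO library 2, against 340, so fewer genes were called over all genes as well. With library totals in place of TMM, 1 of the 10 genes was called with H151 and 3 with SN-011, and all genes called were 299 and 298.

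The antagonists were then compared with each other. H151 binds STING covalently and SN-011 occupies the pocket that cGAMP binds. For SN-011 versus H151, 0 of the 10 genes passed with edgeR's quasi-likelihood test, where 0.158% of all tested genes were called. Unadjusted p by that test was under 0.05 for 0 of the 10 and for 1300 of all 14591 tested genes. DESeq2 and edgeR's exact test also called 0, and 0.158% of all tested genes were called. The differences on the log2 scale ran from -0.22 for Nfkbie (95% interval -0.56 to 0.12) to 0.05 for Nfkbib (95% interval -0.15 to 0.25). For Nfkbia the difference was 0.02 (95% interval -0.24 to 0.28), and for Relb -0.13 (95% interval -0.34 to 0.08). These intervals do not show that the antagonists acted alike.

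Against WT, 0 of the 10 genes passed with H151 and 0 with SN-011 by edgeR's quasi-likelihood test, where 11.8% and 11.7% of all tested genes were called. Unadjusted p by that test was under 0.05 for 0 genes with H151 and for 2 with SN-011, Relb at a log2 fold change of -0.24 and Tnfaip3 at -0.34. Over all 14591 tested genes it was under 0.05 for 3531 with H151 and 3316 with SN-011. By DESeq2 0 were called in each, and by edgeR's exact test 0 with H151 and 1 with SN-011, Tnfaip3. Without WT library 1, 0 genes were called with either antagonist. Without WT library 2, 2 genes were called lower with H151, Nfkb2 and Nfkbia, and 4 with SN-011, those 2 with Relb and Tnfaip3. All genes called, in both directions, were 971 for H151 and 956 for SN-011 without WT library 1, and 1091 and 1159 without WT library 2, against 1726 and 1714 with all libraries.

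The rest of the pathway moved in part. Of 31 genes for IKK subunits, upstream kinases and adaptors, 8 were higher in Trex1-KO than in WT and 0 lower, and 6 to 9 were higher when 1 library was left out. Traf1, an adaptor of TNF receptors, rose from 12.3 and 9.29 CPM in WT to 28.8 and 25.8 in Trex1-KO, a log2 fold change of 1.34 ± 0.14 (SE, FDR = 1.72e-05 by edgeR). Tank and Myd88, the latter the adaptor of Toll-like receptors, rose by 0.61 and 0.45 on the log2 scale. With H151 3 of the 31 were lower (Ikbke, Traf1 and Tank), and with SN-011 5 were lower, with Irak2 and Birc3 besides these. When 1 library was left out, 1 to 3 were lower with H151, the 1 without Trex1-KO library 2, and 1 to 4 with SN-011, with 1 without SN-011 library 1 and 2 without Trex1-KO library 1 or SN-011 library 2. Ikbke, which encodes the IKK-related kinase IKKε, measured 354.7 and 333.7 CPM in Trex1-KO, 266.8 and 253.5 with H151 and 248.2 and 253.3 with SN-011.

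Of 23 other inhibitors and ubiquitin editors, 7 were higher in Trex1-KO and 0 lower, and 5 to 6 were higher when 1 library was left out. Nlrc5, better known as the activator of MHC class I genes, had the largest change at 1.46 ± 0.06 (SE, FDR = 3.75e-09 by edgeR), followed by Tnip3 at 0.76 and Nlrx1 at 0.62. With each antagonist 3 were lower. With H151 these were Nlrc5, Nfkbiz, an atypical nuclear IκB protein, and Rnf31, a subunit of the linear ubiquitin ligase. With SN-011 they were Nlrc5, Tnip1, an A20-binding protein, and N4bp1. Leaving out 1 library gave 1 to 3 lower calls with each, with 1 for H151 without Trex1-KO library 2 and 1 for SN-011 without Trex1-KO library 1 or SN-011 library 1.

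Of 55 textbook NF-κB targets, 48 were tested, of which 23 were higher and 3 lower in Trex1-KO, with a median log2 fold change of 0.62. Lcn2, which encodes the iron-siderophore binder lipocalin 2, rose by 3.61 on the log2 scale, Acod1, the itaconate-forming enzyme, by 2.46 and Cxcl10, a chemokine also induced by interferon, by 2.14. The WT libraries lay far apart for Acod1, at 13.6 and 1.69 CPM against 44.0 and 38.8 in Trex1-KO, and for Cxcl10, at 25.8 and 5.63 CPM against 78.2 and 58.7, so the size of these folds depends on the WT library. Lcn2 measured 0.662 and 0.678 CPM in WT and 9.36 and 7.25 in Trex1-KO, and it was not called lower with either antagonist (FDR = 0.791 and 0.305 by edgeR). The neutrophil markers Ngp, Ltf and Camp moved the same way in Trex1-KO, by 3.54, 3.40 and 3.71 on the log2 scale, and their part in the Lcn2 value was not tested. Csf1, Edn1 and Ier3 were lower. Leaving out 1 library at a time gave 17 higher calls without WT library 2 and 29 without WT library 1. With H151 12 were lower and 1 higher, Ier3, a call lost when any 1 of the 4 libraries compared was left out. With SN-011 15 were lower and 0 higher, and 6 to 16 were lower when 1 library was left out. On the log2 scale Acod1 changed by -2.92 with H151 and -3.86 with SN-011, and Clec4e, the receptor Mincle, by -1.75 and -2.36.

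Of 21 non-canonical pathway receptors, ligands and targets, 11 were tested. Tnfrsf11a, the receptor RANK, and Tnfsf13b, the cytokine BAFF, were higher in Trex1-KO, and Cxcl12 and Tnfrsf12a were lower. Of the 2 higher calls, 1 was left without either WT library, without Trex1-KO library 1 and with DESeq2. Cxcl12, a chemokine of stromal cells, measured 272.1 and 229.3 CPM in WT and 72.3 and 74.7 in Trex1-KO. Of the 9 tested fibroblast markers above, 6 moved the same way and 3 were not called. With H151 and SN-011 0 of the 11 were called against Trex1-KO by edgeR's quasi-likelihood test.

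For scale, 20 interferon-stimulated genes were taken as a comparison list. All 20 were higher in Trex1-KO, with a median log2 fold change of 2.14 against 0.31 for the 10 genes. With H151 all 20 were lower, with a median of -1.19, and with SN-011 19 of 20 were lower, with a median of -1.09. Ifit2, an antiviral effector, measured 601.6 and 555.7 CPM in Trex1-KO, 142.0 and 194.6 with H151 and 177.7 and 210.0 with SN-011. A further list of 61 tested genes that the study marked as RelB targets in its M7core signature, drawn with these samples in view and so not independent evidence, had 53 higher in Trex1-KO, 34 lower with H151 and 39 lower with SN-011. It shares 10 genes with the interferon list, and none of the 10 genes described here is in any of these lists.

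**Figure D5:**
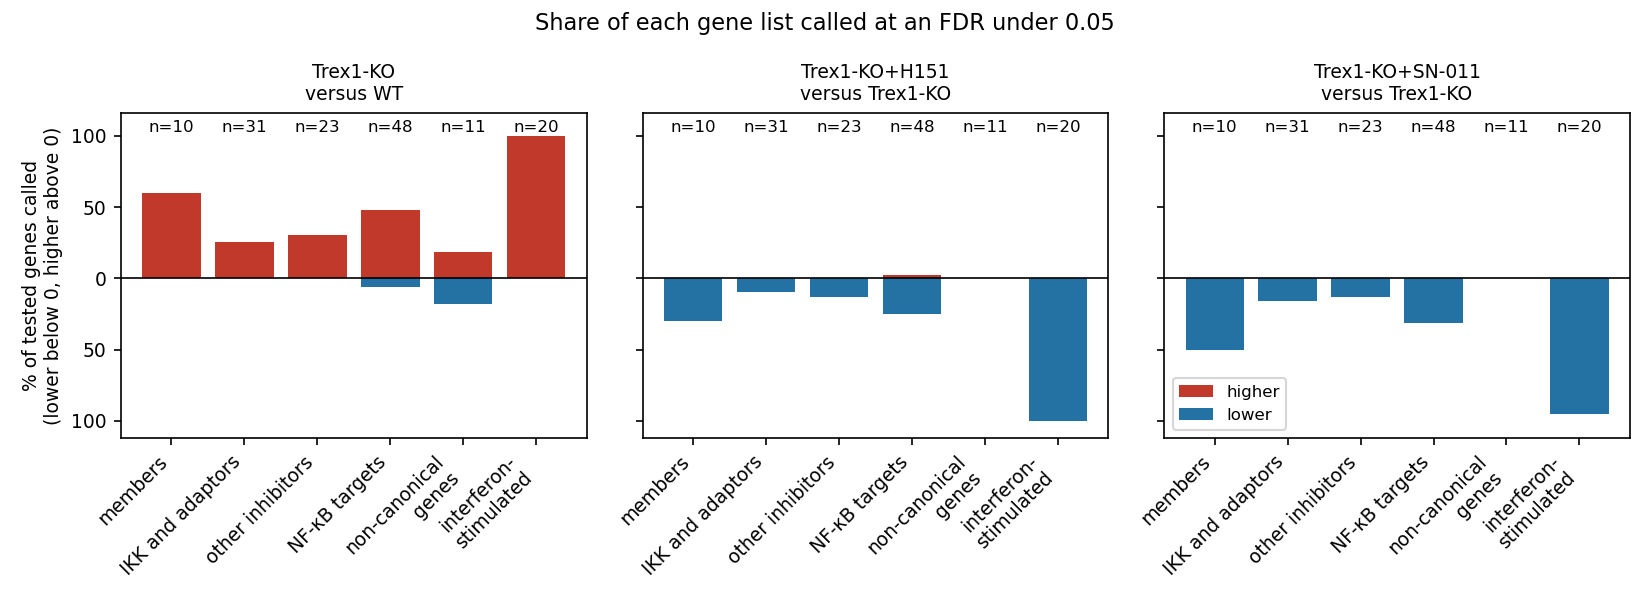
Share of the tested genes of each list called at an FDR under 0.05 (y axis, percent, higher above 0 and lower below 0) in 3 comparisons, with the number tested above each bar. The 10 genes stand between the interferon list, called in 95% to 100%, and the lists of kinases, adaptors and other inhibitors.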

How the data were processed

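Whole-number counts of reads per Ensembl gene were deposited by the authors as 1 file per library, with no normalization. Per the study's methods and the submitters' processing notes, reads were trimmed with Trimmomatic, aligned with HISAT2 to mm10 and counted with featureCounts (methods) or HTSeq (notes). Versions, annotation and strand setting are not given in the sources used here. Symbols came from the GENCODE annotation of GRCm38.

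The 10 genes and all lists were chosen with earlier results of these data known. edgeR 4.0.16 (R 4.3.3, limma 3.58.1) was fitted to all 8 libraries with 1 mean per group, TMM factors and filterByExpr (minimum count 10, minimum total 15). Quasi-likelihood F-tests were two-sided, with Benjamini-Hochberg adjustment over 14591 genes. The SE is the absolute log2 fold change divided by the root of F and is approximate. DESeq2 1.42.0 and other settings were alternatives. Each p-value sets a difference between groups against the spread of libraries within groups, pooled over the 4 groups and moderated across genes. From each list, up to 3 called genes with the largest change and a mean log2 CPM of at least 2 were named, and other names were chosen after their values were seen. The pipeline was tested on simulated data.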

Additional observations from a re-analysis of the deposited data

How the results depend on the processing

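With 2 libraries a group, a call can depend on a single library. Of the calls among the 10 genes, only that of Rel in Trex1-KO versus WT was kept in all 12 alternative settings. A group left with 1 library was assumed to vary like the others. The log2 fold changes of the 10 genes kept their sign in 120 of 120 values for Trex1-KO versus WT and for SN-011 versus Trex1-KO, and in 118 of 120 for H151 versus Trex1-KO, where Rela changed sign. For the smaller differences, signs changed in 10 of 120 values for SN-011 versus H151, 8 for H151 versus WT and 9 for SN-011 versus WT, with 6 genes in each.

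Leaving out 1 library, members called ranged from 1 to 7 for Trex1-KO versus WT, 0 to 3 for each antagonist versus Trex1-KO, 0 to 2 for H151 versus WT and 0 to 4 for SN-011 versus WT. All genes called ranged from 1556 to 1933 for Trex1-KO versus WT, 231 to 357 and 131 to 302 for H151 and SN-011 versus Trex1-KO, 2 to 291 for SN-011 versus H151, and 971 to 1772 and 909 to 1159 for H151 and SN-011 versus WT. With library totals in place of TMM, members called were 2 for Trex1-KO versus WT, 1 with H151 and 3 with SN-011, where all genes called were 2544, 299 and 298. That scaling moved the share of higher among called genes from 56.6% to 37.2% for Trex1-KO versus WT, 57.4% to 41.7% for H151 versus WT and 52.6% to 40.3% for SN-011 versus WT. Keeping genes with at least 1 count over all libraries together, DESeq2 and the exact test each gave 5 members lower with H151. Members called for SN-011 versus WT were 1 with that looser filter, with the exact test and with only those groups fitted. With the looser filter, all genes called were 525 with H151, 679 with SN-011 and 266 for SN-011 versus H151. The exact test called 569 with SN-011 and 74 for SN-011 versus H151, and DESeq2 called 35 there. The causes were not tested.

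The groups share replicate numbers, but no label says what a number marks. Deviations of same-numbered libraries correlated at -0.02 to 0.19. With the number as a replicate block, members called were 8 for Trex1-KO versus WT, 5 with H151 and 6 with SN-011. All genes called were 2611, 412 and 436 there, against 2390, 325 and 340 without it, and 44 for SN-011 versus H151.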

Other observations

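Across the 8 libraries, the 10 genes varied together to different degrees. Pearson correlations of log2 CPM over the 45 pairs ran from 0.34 for Nfkb2 with Rela to 0.97 for Nfkb2 with Nfkbia, and those of Rela with the others from 0.34 to 0.81. The libraries fall into 4 groups, so these values are a description. Nfkbie and Tnfaip3 had the widest spans of group means. The genes most like Nfkbie were Tnip1 (r = 0.98), Arhgef2 (0.98), Ikbke (0.97), Nadk (0.97) and Apobec3 (0.97), and those most like Tnfaip3 were St3gal1 (0.98), Cp (0.98), Pphln1 (0.97), Rassf4 (0.96) and Relb (0.96), each over 8 libraries.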
